A study of Mus musculus with 18 samples.

Results

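Ribosome biogenesis factors are the nucleolar proteins that assemble the ribosome without being part of the finished particle. The 56 genes described here were taken from a list of nucleolar and pre-ribosome assembly genes and matched by symbol to the identifiers of the count tables. That list was chosen with earlier results of these data known, so it is not independent of them. All 56 were found among the 45706 genes of those tables, and all passed the filter on low counts. RNA polymerase I transcribes the ribosomal DNA in the nucleolus into a long precursor RNA, which small nucleolar ribonucleoproteins (snoRNPs) modify at chosen bases. The small subunit processome folds and cuts the part of the precursor that enters the small (40S) subunit, and a separate set of helicases, GTPases and scaffold proteins builds the large (60S) subunit. The transcription factor MYC is known to activate many of these genes in growing cells.

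RNA was sequenced from 18 kidney samples of male mice in 4 groups, C57BL/6 by the labels and with floxed lines named C57BL/6J in the methods of the study. The labels number the samples of a group as replicates without naming the mouse, so the p-values measure the spread between these samples. The methods of the study call the mice littermates without naming the litters. *Myc* KO mice (n = 5) carried floxed *Myc* alleles, the Pax8rtTA transgene and TetOCre, and *Myc* control mice (n = 5) carried floxed *Myc* and Pax8rtTA but lacked TetOCre. *Cxcl12* KO mice (n = 5) and *Cxcl12* control mice (n = 3) had the same make-up with floxed *Cxcl12*, the gene of a secreted chemokine. All mice, controls included, had received doxycycline for 2 weeks and then none for 1 week before the injury. Doxycycline was begun at 6 to 8 weeks of age, and the age given for the injury is 10 to 12 weeks. Both kidneys were made ischemic for 22.5 min and taken 12 h after blood flow returned, and no uninjured kidney enters the comparison. Pax8rtTA directs the recombinase to tubule cells, so the other cells of the whole kidney keep the floxed gene. Presence of the recombinase and loss of the gene cannot be told apart within a cohort, and fewer cells of a type and less RNA per cell cannot be told apart in whole kidneys.

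The libraries held 12918220 to 29749500 reads on genes, and levels are given as CPM, the count of a gene relative to the size of its library, scaled by TMM over all 18 kidneys. Kidney values are listed in the order of the replicate numbers. *Myc* itself was measured at 36.98, 29.1, 29.7, 26.6 and 32.4 CPM in the 5 *Myc* KO kidneys and at 117, 92.6, 85.8, 98.8 and 79.6 CPM in their controls, and the groups did not overlap (log2 fold change -1.61 ± 0.12 SE, adjusted p = 8.82e-05). *Cxcl12* was measured at 26.3 to 40.8 CPM in *Cxcl12* KO and 44.9 to 60.4 CPM in *Cxcl12* control kidneys, without overlap (log2 fold change -0.73 ± 0.15 SE, adjusted p = 0.0942). In the *Cxcl12* KO kidneys *Myc* was at 104 ± 11.5 CPM (SD, n = 5), against 90.1 ± 17.1 CPM in their controls (SD, n = 3). Tubule markers such as *Lrp2* and *Umod* were detected in every kidney, with a summed level of 6931 to 9828 CPM over 8 markers.

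The first comparison asked what loss of tubular *Myc* did to the ribosome assembly machinery of the injured kidney. All 56 factors were lower in *Myc* KO than in *Myc* control kidneys, and 28 of them fell with an adjusted p under 0.05 by edgeR's quasi-likelihood test with Benjamini-Hochberg adjustment over 14936 genes. Among all genes tested, 193 were called lower, which is 1.29%, and 53 were called higher. The median log2 fold change of the 56 factors was -0.36, a level 22.3% lower, and that of all genes tested was -0.00083. Single factors ranged from -0.79 for *Nhp2* to -0.097 for *Tcof1*. In 34 of the 56, every *Myc* KO kidney lay below every *Myc* control kidney, against 586 of all genes tested (3.92%). These 34 include all 28 called factors and also *Fbl*, *Wdr3*, *Imp4*, *Nat10*, *Ltv1* and *Ebna1bp2*.

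**Figure D1:**
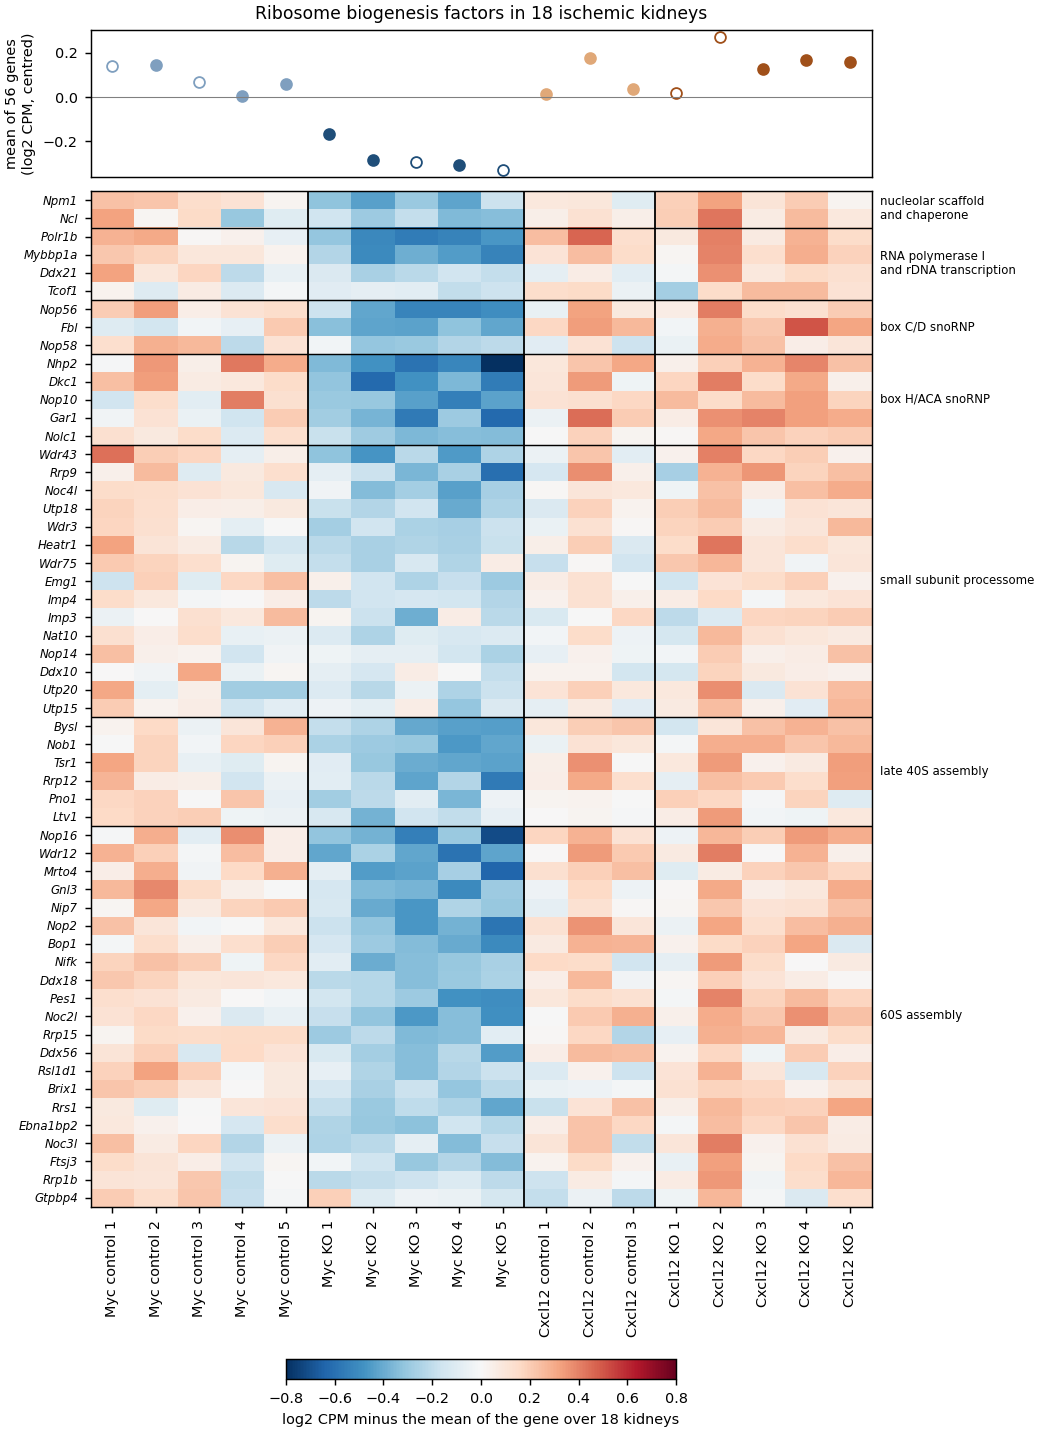
Ribosome biogenesis factors in each of 18 kidneys. Rows are the 56 genes grouped by role, columns are kidneys, and colour is log2 CPM minus the mean of that gene over all kidneys, with the scale ending at -0.8 and 0.8. The upper panel gives the mean of the 56 rows for each kidney, with open circles for kidneys with under 5% unmapped reads. The 5 *Myc* KO kidneys lie between -0.33 and -0.17, and the 13 other kidneys between 0.0055 and 0.27.

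Averaged over the 56 genes after centring each on its mean over all kidneys, the level was -0.17, -0.28, -0.29, -0.31 and -0.33 log2 units in the 5 *Myc* KO kidneys. In the *Myc* control kidneys it was 0.14, 0.15, 0.066, 0.0055 and 0.058. Every *Myc* KO kidney was thus below every other kidney, and *Myc* KO replicate 1 lay nearest to the controls. Summed over the 56 genes, the factors made up 3108 ± 142 CPM in *Myc* KO kidneys and 3960 ± 262 CPM in *Myc* controls (SD, n = 5 each), a difference of -21.5%.

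The kidneys differed in a technical respect that the labels do not name. The 6 most deeply sequenced kidneys, 2 each of the *Myc* KO, *Myc* control and *Cxcl12* KO groups, had under 5% unmapped reads and the other 12 had more. Among the 3 *Myc* KO and 3 *Myc* control kidneys with at least 5% unmapped reads, 54 of the 56 factors were negative with a median of -0.31 and 1 factor, *Nhp2*, was called lower, as were 0.0266% of all genes tested. Among the 2 and 2 with under 5%, all 56 were negative with a median of -0.41 and none was called, nor was any of all genes called lower (0.0%, edgeR). With this split as a covariate over all 10 kidneys the count was 36, and the share of all genes called lower rose from 1.29% to 3.96%. The 28 calls depended on single kidneys. Leaving out *Myc* KO replicate 2, 3, 4 or 5 left 4, 4, 7 or 9 called factors, and leaving out *Myc* control replicate 2, 4 or 5 left 5, 18 or 10. Without *Myc* KO replicate 1 or *Myc* control replicate 1 or 3 there were 28, 23 and 31. Over all genes the share called lower in these fits ran from 0.113% without *Myc* KO replicate 2 to 2.94% without *Myc* control replicate 3. All 56 log2 fold changes were negative in each of these 10 fits, with medians from -0.40 to -0.34. *Dkc1*, *Mybbp1a* and *Nhp2* were called in all 10 fits. Other called factors held less well, such as *Gar1* in 1 fit, *Pes1* in 2, *Bop1* and *Nop10* in 3 and *Nolc1* in 4.

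The nucleolar scaffold was represented by *Npm1*, a histone chaperone that accompanies pre-ribosomes, and *Ncl*, the RNA-binding protein nucleolin. *Npm1* (chr11:33152287-33163206 on GRCm38, as are all gene positions given here) was measured at 94.3, 87.4, 95.9, 87.9 and 105 CPM in *Myc* KO and 139, 138, 129.9, 128 and 119.8 CPM in *Myc* control kidneys. The groups did not overlap, and the difference passed the test (log2 fold change -0.47 ± 0.075 SE, adjusted p = 0.0133). *Ncl*, the most abundant of the 56 factors per kb of exon, had 567, 518, 555, 496 and 500.8 CPM in *Myc* KO and 792, 639, 706, 513 and 592 CPM in *Myc* control kidneys. Here 2 of 5 KO kidneys lay below all controls and the difference did not pass the test (log2 fold change -0.30 ± 0.11 SE, adjusted p = 0.157).

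Of the 4 factors of ribosomal DNA transcription, *Polr1b* and *Mybbp1a* fell. *Polr1b* (chr2:129100995-129126594), a core subunit of RNA polymerase I, was at 32.2, 27.8, 26.96, 27.4 and 28.7 CPM in *Myc* KO and at 48.3, 49.02, 40.01, 40.8 and 38.04 CPM in *Myc* control kidneys (log2 fold change -0.59 ± 0.091 SE, adjusted p = 0.0122). *Mybbp1a* (chr11:72441355-72451768), a nucleolar protein with roles in ribosomal DNA transcription and precursor processing, was at 162, 134, 145, 139.8 and 132 CPM against 221, 215, 203, 203 and 195 CPM (log2 fold change -0.54 ± 0.076 SE, adjusted p = 0.0104). Both genes separated the groups without overlap. *Tcof1*, whose product treacle recruits factors to the ribosomal DNA, was nearest to 0 of all 56, with 34.1, 34.5, 34.2, 31.7 and 32.3 CPM in KO and 36.97, 33.8, 38.1, 33.7 and 35.97 CPM in control kidneys (log2 fold change -0.097 ± 0.066 SE, adjusted p = 0.404), and its groups overlapped. *Ddx21*, an RNA helicase of the nucleolus, had a log2 fold change of -0.26 (adjusted p = 0.146, edgeR).

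Among the 56 factors, *Nhp2* and *Dkc1* of the box H/ACA snoRNPs had the largest differences. All 5 factors of these particles, which convert uridines to pseudouridine, fell, with a median log2 fold change of -0.50. *Nhp2* (chr11:51619735-51623714), a core protein, was at 50.7, 46.2, 43.1, 45.02 and 34.6 CPM in *Myc* KO and 64.3, 82.2, 66.8, 86.8 and 79.5 CPM in *Myc* control kidneys, a level 42.1% lower (log2 fold change -0.79 ± 0.11 SE, adjusted p = 0.0111). *Dkc1* (chrX:75095854-75109777), the pseudouridine synthase itself, was at 33.3, 26.8, 29.6, 32.2 and 28.1 CPM against 48.8, 52.1, 43.3, 43.7 and 45.9 CPM, a level 35.8% lower with the smallest p of the 56 (log2 fold change -0.64 ± 0.084 SE, adjusted p = 0.00792). No KO kidney reached a control kidney in either gene. *Nop10*, a small core protein and among the most abundant factors per kb, was at 42.7, 42.5, 38.7, 35.9 and 38.9 CPM in KO and 47.1, 57.9, 49.5, 69.6 and 57.2 CPM in control kidneys (log2 fold change -0.50 ± 0.10 SE, adjusted p = 0.0364). *Gar1*, the other core protein, fell by 0.44 and *Nolc1*, a chaperone of snoRNPs, by 0.38 on the log2 scale (adjusted p = 0.0493 and 0.0251, edgeR).

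In the box C/D snoRNPs, which methylate ribose, *Nop56* fell while *Fbl* and *Nop58* did not pass the test. *Nop56* (chr2:130274430-130279313), a core protein, was at 47.02, 39.5, 36.5, 36.6 and 37.3 CPM in *Myc* KO and 60.5, 66.3, 54.5, 57.1 and 58.1 CPM in *Myc* control kidneys, without overlap (log2 fold change -0.59 ± 0.087 SE, adjusted p = 0.0115). *Fbl*, the methyltransferase fibrillarin, was the least abundant factor per kb, with 6.32, 5.96, 5.94, 6.39 and 5.97 CPM in KO and 7.43, 7.20, 7.85, 7.63 and 9.24 CPM in control kidneys (log2 fold change -0.36 ± 0.11 SE, adjusted p = 0.0966). Of the longest coding *Fbl* transcript, 83.3% is repeated elsewhere in the annotation at 95% identity or more, and STAR does not count multiply mapped reads, so its level is uncertain. *Nop58*, the partner of *Nop56*, had a log2 fold change of -0.34 (adjusted p = 0.0975, edgeR).

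**Figure D2:**
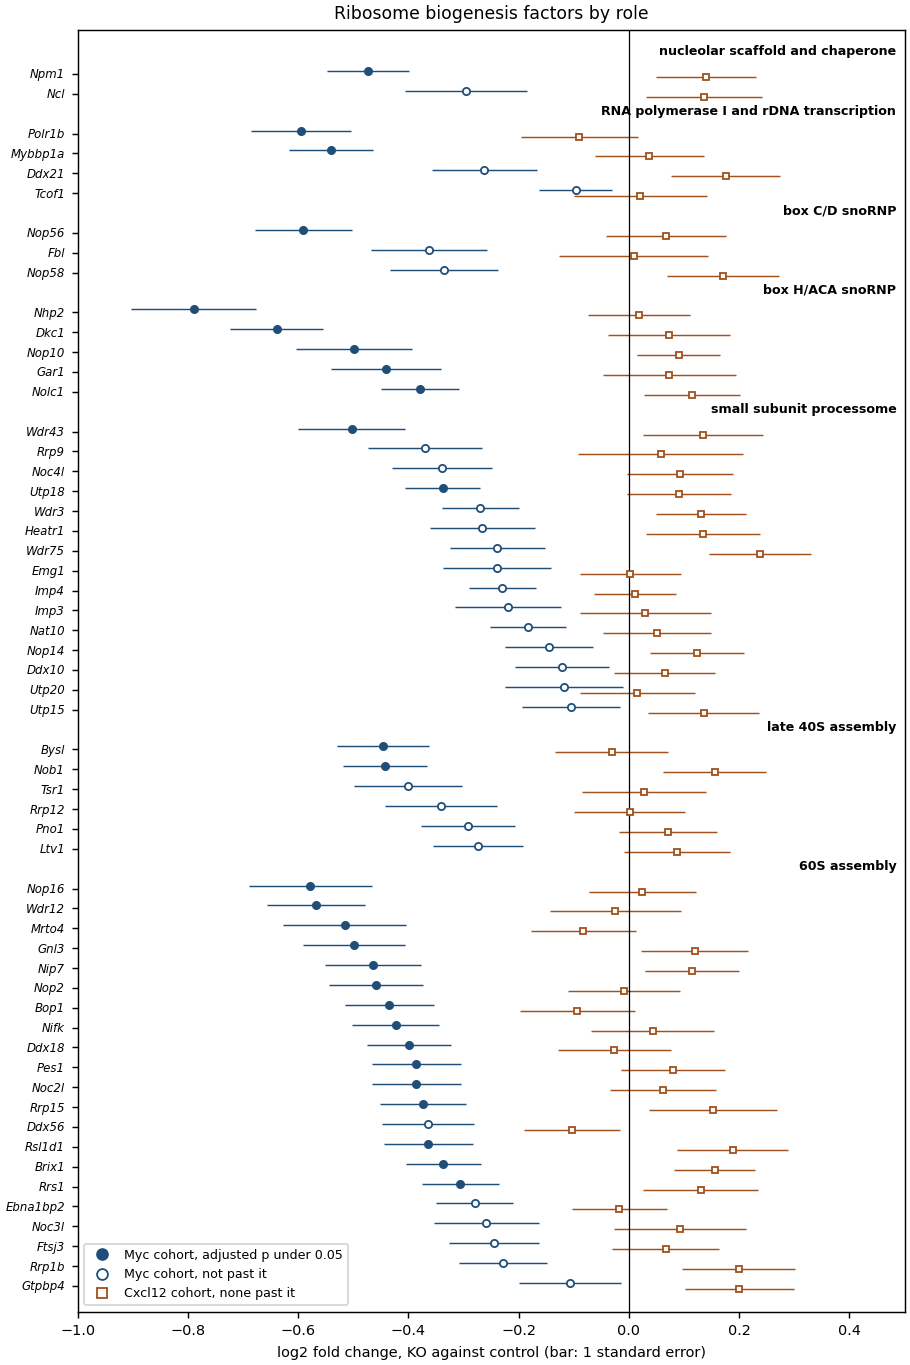
Log2 fold change of the 56 factors, KO against control, in the *Myc* cohort (circles, filled where the adjusted p was under 0.05) and the *Cxcl12* cohort (squares), with bars of 1 standard error. All circles lie left of 0, from -0.79 to -0.097, and the squares lie between -0.10 and 0.24.

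The small subunit processome had the smallest share of calls. Of its 15 members, *Wdr43* and *Utp18* fell and the median log2 fold change was -0.24, with all 15 negative. *Wdr43* (chr17:71615895-71659031), part of the subcomplex that binds the nascent precursor first, was at 60.2, 54.3, 64.8, 54.9 and 63.4 CPM in *Myc* KO and 102, 86.1, 84.8, 71.7 and 77.7 CPM in *Myc* control kidneys (log2 fold change -0.50 ± 0.097 SE, adjusted p = 0.0278). *Utp15*, of the same subcomplex, was among the 3 factors nearest to 0, with 33.03, 32.2, 35.3, 27.3 and 31.4 CPM against 38.98, 34.6, 35.3, 30.3 and 31.999 CPM (log2 fold change -0.10 ± 0.089 SE, adjusted p = 0.514), and its groups overlapped. The other 12 that did not pass the test were *Rrp9*, *Noc4l*, *Wdr3*, *Heatr1*, *Wdr75*, *Emg1*, *Imp4*, *Imp3*, *Nat10*, *Nop14*, *Ddx10* and *Utp20*, with log2 fold changes from -0.37 for *Rrp9* to -0.12 for *Utp20*. They include the acetyltransferase *Nat10*, the methyltransferase *Emg1* and the helicase *Ddx10*.

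Of the 6 factors of late 40S assembly, *Nob1* and *Bysl* fell. *Nob1*, the endonuclease that forms the end of the 18S ribosomal RNA, was at 30.03, 29.3, 28.97, 25.98 and 26.8 CPM in *Myc* KO and 35.6, 40.4, 35.2, 40.2 and 40.8 CPM in *Myc* control kidneys (log2 fold change -0.44 ± 0.076 SE, adjusted p = 0.0196). *Bysl*, an assembly factor of the maturing particle, was at 35.01, 33.6, 30.2, 29.6 and 29.4 CPM against 40.7, 44.6, 38.7, 42.7 and 48.4 CPM (log2 fold change -0.45 ± 0.084 SE, adjusted p = 0.0251). The groups did not overlap in either gene, and the other 4 members, *Tsr1*, *Rrp12*, *Pno1* and *Ltv1*, had log2 fold changes from -0.40 to -0.27 and adjusted p from 0.0619 to 0.103 (edgeR).

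Of the 21 factors of 60S assembly, 15 fell, with a median log2 fold change of -0.39. *Nop16*, an early assembly factor, had the largest difference, with 28.1, 26.9, 23.9, 28.5 and 21.3 CPM in *Myc* KO and 34.7, 42.8, 33.01, 45.2 and 36.3 CPM in *Myc* control kidneys (log2 fold change -0.58 ± 0.11 SE, adjusted p = 0.0278). All 3 proteins of the PeBoW complex, *Pes1*, *Bop1* and *Wdr12*, which is needed to process the precursor of the large subunit, fell. *Wdr12* was at 18.4, 20.6, 18.4, 16.3 and 18.3 CPM against 29.8, 28.1, 24.3, 29.2 and 25.5 CPM (log2 fold change -0.57 ± 0.089 SE, adjusted p = 0.0131), and *Bop1* at 47.8, 42.8, 41.1, 39.6 and 36.8 CPM against 51.8, 57.9, 54.01, 57.5 and 60.1 CPM (log2 fold change -0.43 ± 0.08 SE, adjusted p = 0.0251). *Pes1* had a log2 fold change of -0.39 (adjusted p = 0.0358, edgeR).

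*Gnl3*, the GTPase nucleostemin, was at 73.5, 63.01, 62.4, 56.7 and 65.9 CPM in *Myc* KO and 96.6, 105, 89.3, 83.5 and 80.4 CPM in *Myc* control kidneys (log2 fold change -0.50 ± 0.092 SE, adjusted p = 0.0251). *Nop2*, a methyltransferase of ribosomal RNA, was at 48.99, 44.4, 39.98, 42.5 and 36.9 CPM against 64.9, 59.1, 54.4, 55.2 and 58.6 CPM (log2 fold change -0.46 ± 0.085 SE, adjusted p = 0.0251). *Nip7*, which associates with pre-60S particles, was at 31.8, 26.2, 25.1, 29.5 and 28.2 CPM against 35.2, 43.1, 36.5, 39.3 and 40.2 CPM (log2 fold change -0.46 ± 0.087 SE, adjusted p = 0.0251). In each of these, as in *Nop16*, *Wdr12* and *Bop1*, all KO kidneys lay below all controls. *Gtpbp4*, a GTPase of the same pathway, was among the 3 nearest to 0, with 97.4, 79.5, 82.9, 82.2 and 77.4 CPM in KO and 98.2, 94.1, 99.5, 75.2 and 84.7 CPM in control kidneys (log2 fold change -0.11 ± 0.093 SE, adjusted p = 0.522). Its highest KO kidney, *Myc* KO replicate 1, exceeded 3 of 5 controls, and its sign turned to 0.04 among kidneys with at least 5% unmapped reads. *Mrto4*, *Nifk*, *Ddx18*, *Noc2l*, *Rrp15*, *Rsl1d1*, *Brix1* and *Rrs1* were called as well, with log2 fold changes from -0.52 for *Mrto4* to -0.31 for *Rrs1*. *Ebna1bp2*, *Noc3l*, *Ftsj3* and *Rrp1b* did not pass the test, with values from -0.28 to -0.23. *Ddx56*, a helicase, lay just outside the threshold (adjusted p = 0.05003) and *Rrs1* just inside it (adjusted p = 0.0497, edgeR).

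**Figure D3:**
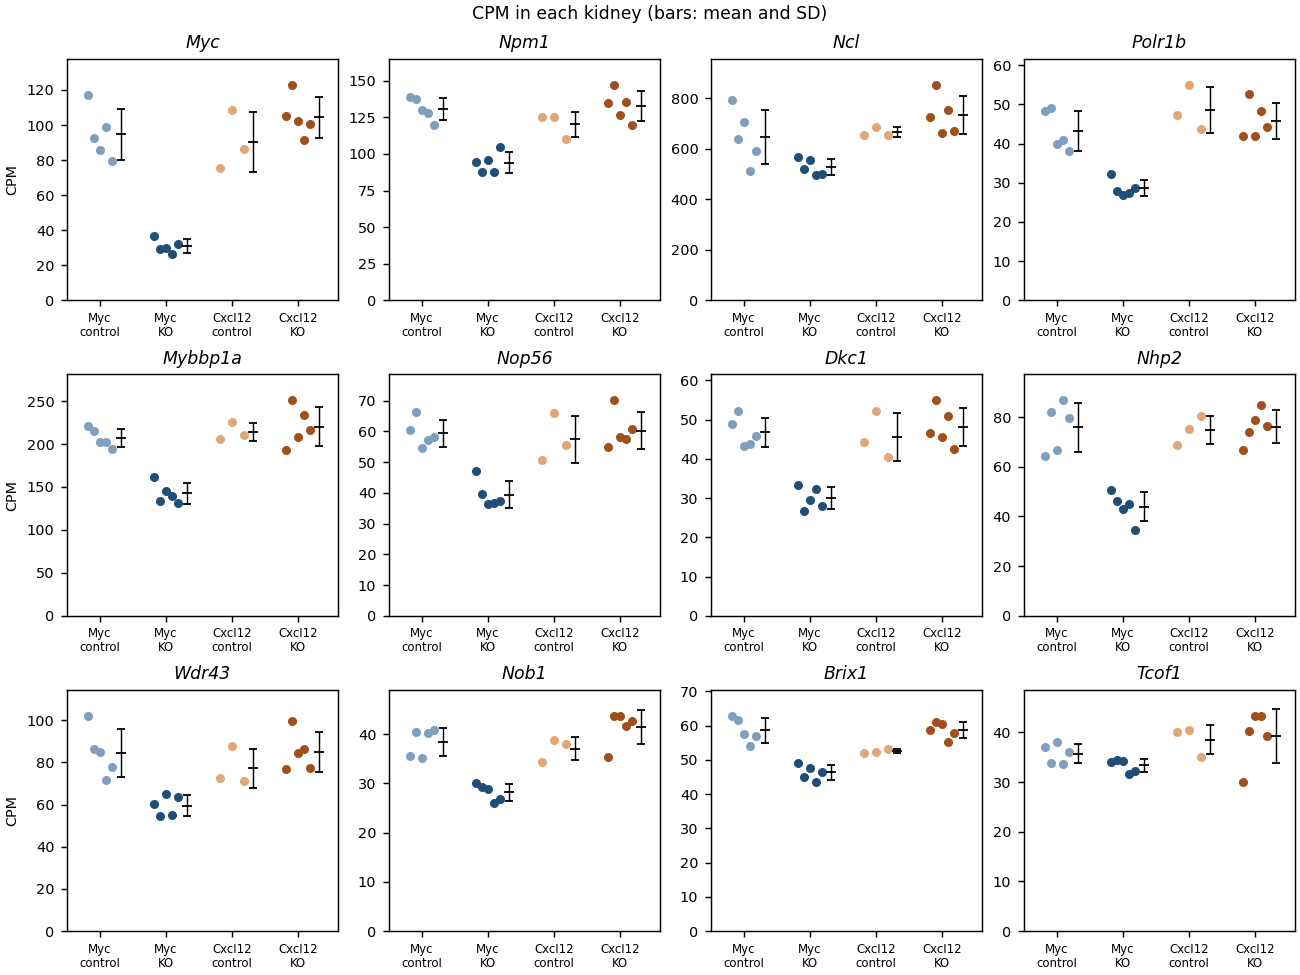
CPM of *Myc* and 11 ribosome biogenesis factors in each kidney (points), with the mean and SD of each group. The factors shown were selected from the genes named by rule. In 9 of the 11 factors shown the *Myc* KO kidneys lie below all *Myc* control kidneys, while *Ncl* and *Tcof1* overlap. Such separation was found in 34 of all 56 factors and in 3.92% of all genes tested.

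A further 108 genes of ribosome assembly were listed, also with earlier results of these data known, and 106 of them were matched and tested. In *Myc* KO kidneys 8 of them fell and none rose (adjusted p under 0.05, edgeR), against 1.29% of all genes called lower, 95 had a negative log2 fold change and the median was -0.22. The 8 were *Polr1e*, a subunit of RNA polymerase I, the processome proteins *Wdr46*, *Rcl1*, *Tbl3* and *Wdr36*, the 60S factors *Ppan* and *Rpf2*, and *Ruvbl2*, an ATPase that helps assemble snoRNPs. *Polr1e* had the largest difference of these (log2 fold change -0.67 ± 0.093 SE, adjusted p = 0.0104) and *Wdr36* the smallest (log2 fold change -0.33 ± 0.072 SE, adjusted p = 0.0415). By class, the median was -0.12 for 13 other RNA polymerase I factors, -0.22 for 31 processome factors, -0.28 for 7 factors of 40S maturation, -0.18 for 38 of 60S assembly and export, and -0.31 for 17 of snoRNP assembly and the RNA exosome. DESeq2 called 34 of the 106 lower, against 4.33% of all genes, and with library totals alone the count was 16, against 2.27%. The fits without 1 kidney gave 1 to 21 lower, and 1 factor was called higher without *Myc* control replicate 3.

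**Figure D4:**
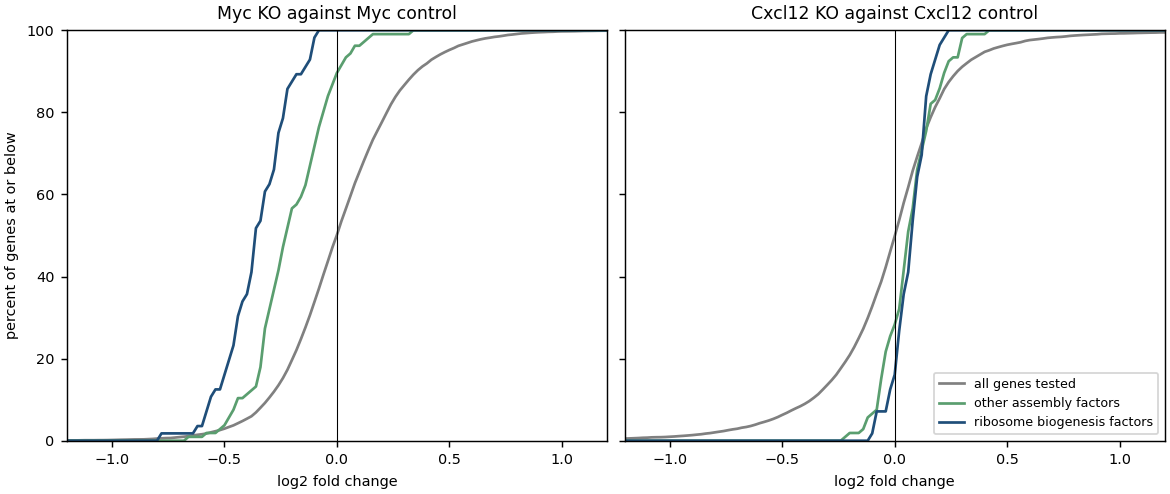
Cumulative percent of genes (vertical axis) at or below each log2 fold change (horizontal axis), KO against control, for all genes tested, the 56 ribosome biogenesis factors and 106 other assembly factors. In the *Myc* cohort (left) the medians lie at -0.00083, -0.36 and -0.22, and in the *Cxcl12* cohort (right) at 0.00083, 0.072 and 0.059.

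Markers of cell types were compared beside these counts. None of the 37 markers that could be tested, of 40 listed for tubule, podocyte, endothelium, fibroblast and pericyte, leukocyte, injured tubule and proliferating cells, passed the test in the *Myc* cohort (edgeR). Endothelial markers had a median log2 fold change of 0.36, with a summed level of 551 to 769 CPM in *Myc* KO and 394 to 671 CPM in *Myc* control kidneys. Podocyte markers had a median of 0.29, with 492 to 613 against 322 to 553 CPM, and leukocyte markers one of 0.22, with 214 to 299 against 127 to 277 CPM. For tubule markers the median was 0.14, with 8264 to 9623 against 7645 to 9828 CPM, and for fibroblast and pericyte markers 0.19, with 280 to 401 against 235 to 372 CPM. Injury markers had a median of -0.025, and proliferation markers one of -0.17 with 6.45 to 11.3 against 7.20 to 17.1 CPM. The ranges of KO and control kidneys overlapped in each list, *Cd79a* alone was at 0 in some kidney, and the part of these markers in the fall of the factors was not tested.

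The promoters of the factors were searched for the E-box, the motif CACGTG that MYC binds together with MAX, which reads the same on both strands. RefSeq promoter windows (GRCm38.p6, 250 bases before to 50 after the start site) were at hand for 50 of the 56 factors. The motif occurred in 10 of these 50 (20.0%), in 8.09% of all 27025 genes with a window and in 11.4% of the 11119 genes with a window that were tested in the *Myc* cohort. Below are 30 bases around the motif, with the motif in capitals and positions counted from the start site, for the 5 factors with the motif that fell and for *Utp20*, the factor with the motif whose difference was smallest.
*Mybbp1a* (chr11:72441347-72441376, plus strand, motif from +41): aagtgactgtcttctgagccCACGTGtttg
*Nop2* (chr6:125131811-125131840, plus strand, motif from -60): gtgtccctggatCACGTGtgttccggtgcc
*Pes1* (chr11:3963965-3963994, plus strand, motif from +3): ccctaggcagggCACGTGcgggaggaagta
*Utp18* (chr11:93885769-93885798, minus strand, motif from -20): gcgagcgccggtCACGTGgcttgcggcggc
*Wdr43* (chr17:71616220-71616249, plus strand, motif from +18): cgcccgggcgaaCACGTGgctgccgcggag
*Utp20* (chr10:88826765-88826794, minus strand, motif from +38): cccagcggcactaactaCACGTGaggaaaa
*Mybbp1a*, *Nop2*, *Pes1*, *Utp18* and *Wdr43* fell, and *Utp20* had a log2 fold change of -0.12 (adjusted p = 0.540, edgeR). The other factors with the motif were *Imp4*, *Ltv1*, *Pno1* and *Tsr1*. The median log2 fold change was -0.36 both in factors with and in factors without the motif, and 5 of 10 with and 20 of 40 without it were called, with no test made. *Dkc1*, *Nhp2*, *Nop56* and *Polr1b*, which had the largest differences, held no such letters in their windows.

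The 56 genes lie on 19 chromosomes. In 7 of them, *Ncl*, *Nop56*, *Nop58*, *Dkc1*, *Wdr43*, *Tsr1* and *Gnl3*, snoRNA genes lie within the gene, 21 in all. Of these host genes 4 were called in the *Myc* cohort, with a median log2 fold change of -0.50 over the 7, against 24 of the 49 others with a median of -0.34. Among all genes tested 1.29% were called lower, and a difference between hosts and others was not tested. Near-identical sequence elsewhere in the annotation, at 95% identity over 300 bases or more, was found for 9 factors. They were *Ddx18*, *Fbl*, *Imp3*, *Pes1*, *Mrto4*, *Npm1*, *Nop56*, *Wdr12* and *Ddx21*, and their levels are therefore uncertain. Adding the counts of the non-coding copies left the number of called factors at 28.

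The second comparison asked the same of *Cxcl12*. None of the 56 factors passed the test in *Cxcl12* KO against *Cxcl12* control kidneys with edgeR, DESeq2 or limma-voom, and 1 had an unadjusted p under 0.05 (edgeR). Over all 15154 genes tested the share called by edgeR was 0.0%, with 1976 at an unadjusted p under 0.05, while DESeq2 called 353. The median log2 fold change of the factors was 0.072, 47 were positive and 9 negative, and that of all genes was 0.00083. Values ranged from -0.10 for *Ddx56* to 0.24 for *Wdr75*, with standard errors of 0.073 to 0.15. With library totals in place of TMM the median was 0.013 and 22 factors were negative, and the median of all genes moved to -0.056.

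The 5 factors with the smallest p in the *Cxcl12* cohort were all higher in KO kidneys. *Wdr75*, a processome protein, was at 52.9, 54.9, 48.8, 44.7 and 48.8 CPM in *Cxcl12* KO and 40.1, 45.9 and 41.03 CPM in *Cxcl12* control kidneys (log2 fold change 0.24 ± 0.093 SE, adjusted p = 0.323). *Brix1*, an early 60S factor, was at 58.8, 61.03, 60.4, 55.2 and 57.9 CPM against 51.99, 52.3 and 53.2 CPM (log2 fold change 0.16 ± 0.073 SE, adjusted p = 0.396). *Brix1* was the only factor whose *Cxcl12* KO kidneys all lay above the controls, as did 4.98% of all genes tested. *Gtpbp4* was at 83.4, 103, 84.6, 79.01 and 93.8 CPM against 74.7, 82.5 and 73.9 CPM (log2 fold change 0.20 ± 0.099 SE, adjusted p = 0.417). *Rrp1b* and *Rsl1d1*, both nucleolar proteins, completed the 5, with 37.4 ± 3.88 against 32.5 ± 2.61 CPM and 113 ± 11.5 against 98.5 ± 7.26 CPM (SD, n = 5 and 3). Their adjusted p were 0.444 and 0.452 (edgeR). None of the 106 other assembly factors passed the test, 11 had an unadjusted p under 0.05, and their median was 0.059. Injury markers were higher in the *Cxcl12* KO kidneys, with a summed level of 2587 to 3144 CPM over *Havcr1*, *Lcn2*, *Krt20* and *Sox9* against 1611 to 2438 CPM in their controls, and none of the 4 passed the test. Proliferation markers had a median log2 fold change of -0.75, with 7.12 to 11.4 against 5.38 to 35.4 CPM. Medians were 0.31 for leukocyte, 0.14 for endothelial, 0.084 for podocyte, -0.11 for tubule and -0.21 for fibroblast and pericyte markers. No marker passed the test in this cohort (edgeR).

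Over all 4 groups, the mean of the centred log2 levels of the 56 factors was 0.083 ± 0.060 in *Myc* control, 0.075 ± 0.087 in *Cxcl12* control and 0.15 ± 0.090 in *Cxcl12* KO kidneys, against -0.28 ± 0.064 in *Myc* KO kidneys (SD, n = 5, 3, 5 and 5). The first 3 overlapped one another. *Nhp2*, for example, was at 75.9 ± 9.84, 74.8 ± 5.73 and 76.1 ± 6.69 CPM in these, and at 43.9 ± 5.89 CPM in *Myc* KO kidneys. *Dkc1* was at 46.8 ± 3.70, 45.6 ± 6.09 and 48.1 ± 4.87 CPM, and at 30.01 ± 2.72 CPM in *Myc* KO kidneys.

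Levels between genes were compared per kb of annotated exon. The most abundant factors were *Ncl* with 63.0, *Nhp2* with 58.4 and *Nop10* with 48.1 CPM per kb averaged over 18 kidneys. The least abundant were *Fbl* with 1.93, *Wdr12* with 2.10 and *Rrp1b* with 4.36 CPM per kb. Of the longest coding transcripts, 83.3% of *Fbl* and 13.7% of *Wdr12* is repeated elsewhere, so the places of these 2 are uncertain. Annotated exons were merged over all transcripts of a gene. This makes the exon length of some of them, *Ncl* and *Wdr12* included, long and lowers their levels per kb. In each kidney at least 80 reads were counted for each of the 56 factors.

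The difference between the KO effects was tested in a fit over all 18 kidneys. In this fit all 56 factors had a more negative log2 fold change in the *Myc* than in the *Cxcl12* cohort, with a median difference of -0.44, against -0.0065 over all genes. *Npm1* and *Brix1* passed the test, and among 15903 genes 6 had a negative difference past it, which is 0.0377%. *Npm1* differed by -0.62 ± 0.11 and *Brix1* by -0.50 ± 0.089 (SE, adjusted p = 0.0377 each, edgeR). *Nob1* came next with -0.60 ± 0.11 (SE, adjusted p = 0.0579). In *Brix1*, *Myc* KO kidneys held 49.1, 44.95, 47.7, 43.5 and 46.5 CPM and *Myc* control kidneys 62.9, 61.7, 57.6, 53.96 and 56.8 CPM, without overlap (log2 fold change -0.34 ± 0.068 SE, adjusted p = 0.0325). The count moved with single kidneys, as did the share of all genes with a negative difference past the test, from 0.00615% to 0.196%. It was 0 without *Cxcl12* KO replicate 2, 3 or 4, without any of the 3 *Cxcl12* controls, without *Myc* KO replicate 2, 3 or 4 and without *Myc* control replicate 2 or 5, and 1 without *Cxcl12* KO replicate 5 or *Myc* control replicate 4. It was 8 without *Cxcl12* KO or *Myc* KO replicate 1, 7 without *Myc* KO replicate 5, 6 without *Myc* control replicate 1 and 5 without *Myc* control replicate 3. Among kidneys with at least 5% unmapped reads, *Nhp2* and *Nob1* passed the test of the difference in place of *Npm1* and *Brix1*, where 0.0771% of all genes had a negative difference past it, and *Utp20* turned to 0.078. Cohort and mouse line cannot be told apart in this fit.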

How the data were processed

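Per the labels and the methods of the study, the authors trimmed reads with Trimmomatic 0.32, aligned them to GRCm38 and made read counts for genes with STAR 2.4.0, and they deposited raw counts for each kidney without normalization. The unstranded count column was used as deposited, because the 2 stranded columns were about equal. The rows of unmapped, multiply mapped, unassigned and ambiguous reads were left out of library sizes. Unmapped reads were 3.69% to 6.48% per kidney and multiply mapped reads 16.6% to 18.6%. Gene positions and exons came from GENCODE vM21 on GRCm38, and near-identical copies were found with blastn 2.17.0.

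The quasi-likelihood test of edgeR 4.0.16 in R 4.3.3 was run within each cohort on genes kept by filterByExpr, with TMM factors. P-values were adjusted over all genes tested by the Benjamini-Hochberg method, with a threshold of 0.05, and standard errors were derived from the F statistic and the log2 fold change. The difference between the KO effects was fitted over 18 kidneys. DESeq2 1.42.0 and limma 3.58.1 served as alternatives, beside other scalings and filters, a replicate block, a covariate for the split by unmapped reads and leaving out each kidney. The split into kidneys with under 5% unmapped reads alone and the adding of copies were chosen after the data were seen. Scripts were tested on simulated data. An exact permutation test of the genotype can reach a two-sided p of 0.00794 with 5 against 5 kidneys and 0.0357 with 5 against 3.

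The labels number replicates but name no shared litter or day, and the methods of the study call the mice littermates without naming litters. Deviations of same-numbered KO and control kidneys had correlations of -0.157 to 0.379 in the *Myc* and -0.0349 to 0.143 in the *Cxcl12* cohort. Those of differently numbered kidneys were -0.534 to 0.457 and -0.156 to 0.212. In the *Myc* cohort the values of 0.379 and 0.457 both joined kidneys with under 5% unmapped reads. The value of -0.534 joined kidneys from the 2 sides of that split. The correlations thus cannot decide whether equal numbers mark pairs, and the numbers were not taken as pairs. The factors, the other lists and the tests were chosen with earlier results of these data known. The genes given with values per kidney were, by rule, the targeted genes, at most 12 called factors with the smallest p in the *Myc* cohort, the largest change in each role, the 3 nearest to 0, the 5 with the smallest p in the *Cxcl12* cohort, the 3 with the smallest p for the difference, the 3 most and 3 least abundant per kb, and the other assembly factors that were called. Other genes are given by counts and ranges, or were named after their values were seen. Sequences came from RefSeq promoter windows of GRCm38.p6. The authors' own comparisons and the study's batch correction were not used here.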

Additional observations from a re-analysis of the deposited data

Results flagged for a closer look

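Among 84 sets of 5 kidneys tested for a value far from the others, 4 stood apart by Dixon's test, and chance flags about 5% of such sets. In 3 of them the kidney was *Myc* KO replicate 1, which was the highest of its group: 47.0 CPM for *Nop56*, 97.4 CPM for *Gtpbp4* and -0.17 log2 units for the centred mean of all 56 factors. The fourth was *Cxcl12* KO replicate 1, with 35.4 CPM for *Nob1*, the lowest of its group. Without *Myc* KO replicate 1 the median log2 fold change of the factors in the *Myc* cohort was -0.40 and 28 were called, as many as with it.

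The KO effect differed between the cohorts for *Npm1*, by -0.62 log2 units, and for *Brix1*, by -0.50 log2 units, in a test of the difference itself (adjusted p = 0.0377 each, edgeR). *Npm1* was lower in all 5 *Myc* KO kidneys than in all *Myc* controls, and its mean was 133 CPM in *Cxcl12* KO against 120 CPM in *Cxcl12* control kidneys (adjusted p = 0.541, edgeR). *Brix1* separated the groups in both cohorts, lower in *Myc* KO and higher in *Cxcl12* KO kidneys. In the *Cxcl12* cohort its adjusted p was 0.396 (edgeR), and 4.98% of all genes tested separated upward there. *Npm1* and *Brix1* each passed the test of the difference in 6 of the 18 fits without 1 kidney. Of the longest coding *Npm1* transcript 53.8% is repeated elsewhere, and the difference was not refitted with copies added.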

How the results depend on the processing

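The median log2 fold change of the 56 factors was negative in the *Myc* cohort (-0.41 to -0.31) and positive in the *Cxcl12* cohort (0.013 to 0.11) under each alternative run, and leaving out each kidney gave -0.40 to -0.34 and 0.024 to 0.11. In the *Myc* cohort 28 factors were called in the test as reported, 40 by DESeq2, 34 with library totals only, 26 by limma-voom, 21 without a filter on low counts, 1 and 0 among kidneys with at least and with under 5% unmapped reads, and 4 to 31 without 1 kidney. Of all genes, 193 were called lower as reported, 163 by limma-voom and 171 without a filter. DESeq2 called 646 lower, library totals only 339 and the covariate for unmapped reads 591. Counted in both directions together, 246 of all genes were called in the *Myc* cohort. This count became 1131 with DESeq2, 391 with library totals only, 954 with the covariate for unmapped reads, 8 and 0 in the subsets with at least and with under 5% unmapped reads, and 21 to 877 without 1 kidney. The 8 other assembly factors called became 34, 16, 27, 0 and 0 under these settings, and 1 to 22 without 1 kidney. In the *Cxcl12* cohort the count of 0 genes, also in both directions, became 353 with DESeq2, 17 with library totals only, 214 without a filter, 123 with the covariate, 80 among kidneys with at least 5% unmapped reads and 0 to 15 without 1 kidney, while no factor was called in any of these. For the difference between the KO effects the count of 2 factors became 28 with DESeq2, 0 with library totals only or limma-voom, 1 without a filter, 15 with the covariate and 0 to 8 without 1 kidney. Of all 15903 genes, 6 had a negative difference past the test as reported, 234 with DESeq2 and 96 with the covariate. The replicate block, which joins kidneys that share only a number, left 18 genes, 1 factor (*Nop56*) and 1 other assembly factor in the *Myc* cohort, 0 genes in the *Cxcl12* cohort and 0 factors for the difference, with medians of -0.36 and 0.074. *Gtpbp4* and *Utp20* turned to 0.036 and 0.024 among *Myc* kidneys with at least 5% unmapped reads. In the *Cxcl12* cohort 9 factors were negative as reported, 22 with library totals only, 16 under the replicate block and 4 to 19 without 1 kidney. For the 36 log2 fold changes of the genes named by rule, that one reversal of *Gtpbp4* aside, under alternatives that kept all replicates or a subset by unmapped reads, 298 values kept their direction and side of the threshold, 79 lost the call and 6 gained one. The causes of these changes were not tested, and the subsets also held fewer kidneys. The smallest count of a factor in a kidney was 80 reads, for *Fbl*.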
